A study of Caenorhabditis elegans with 2 samples.

Results

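Peaks of the T-box transcription factor SEA-1 at tRNA genes were taken from the list the authors named conservative. It was made from both replicates with a threshold on the irreproducible discovery rate. A peak was counted where its summit, the point of highest signal, lay within 100 bp of an annotated nuclear tRNA gene. This gave 222 of the 1249 peaks. They touched 225 of 612 nuclear tRNA genes (36.8%, 95% Wilson interval 33 to 40.7), against 2.56% of all 46890 nuclear genes of any kind under the same window, and 387 tRNA genes had none. No peak of the lists used lay on the mitochondrial genome, which holds 22 further tRNA genes.

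The chromatin came from whole early embryos of Caenorhabditis elegans, strain OP129, collected at 0 hour by bleaching eggs out of their mothers. These animals carry the transgene wgIs129, in which sea-1 is fused to TY1, EGFP and 3xFLAG, together with an unc-119(+) copy that rescues the unc-119(ed3) mutation of the strain, so the protein profiled is the tagged product of an integrated transgene and each library mixes all cells of the embryo. Chromatin was sonicated to a size range given as 200 to 800, with no unit, and the tagged protein pulled down through its GFP, in 2 biological replicates that form 1 group. No control library was used here and the sequencing depth is unknown. With 1 group there is no test between conditions, intervals cover the counting error of genes or peaks only, and genes are not replicates.

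SEA-1 is known as an autosomal signal element, a factor that acts on the sex-determining switch gene xol-1 in the early embryo. Transfer RNA genes are short genes read by RNA polymerase III from a promoter that lies inside the transcribed sequence. The factor TFIIIC binds the internal A box, near the start of the gene, and the B box, in the part that becomes the T arm, and places TFIIIB just upstream of the gene, where it recruits the polymerase; a run of T after the gene ends transcription. Each gene is classed by isotype, the amino acid its tRNA carries, and by anticodon, and many anticodons are served by several genes of identical sequence scattered over the genome.

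The sequences that carry the comparison are shown here, from RefSeq's WBcel235 genome, 5′ to 3′ on the gene strand, with the A box and the B box in capitals. The B box searched for is GTTCGANNC or, where that is absent, its variant GNTCNANNC, on the gene strand. The gene with the strongest peak, C04A11.t1, a leucine gene with anticodon CAA and an intron of 35 bases (chrX:13665555-13665673, plus strand), shows both boxes of a peak-bearing gene. Pairs from 3 families of identical genes follow, each gene with the 60 bases before it. A pair holds the copy with the strongest peak and a copy without a conservative peak. The latter also had no summit within 100 bp in either replicate's ranked list, which holds weak peaks too. In each pair the annotated gene sequence was the same and the 60 bases before it differed. The sequence after the gene and the wider site were not compared in these pairs. The lysine TTT pair is C33G3.t2 (chrX:14063946-14064078, minus strand) and F18C5.t1 (chrII:6565188-6565320, plus strand), the alanine AGC pair F34H10.t1 (chrX:9637852-9637983, minus strand) and T08A9.t1 (chrX:7323693-7323824, plus strand), and the arginine ACG pair T06H11.t2 (chrX:10132618-10132750, plus strand) and T01C1.t1 (chrX:10731989-10732121, minus strand). The last pair of genes had no peak and no A box found: K11H12.t1, the selenocysteine gene (chrIV:658181-658266, plus strand), and T13B5.t2, annotated as a threonine gene, whose sequence has no copy elsewhere (chrII:1102360-1102432, minus strand).
C04A11.t1: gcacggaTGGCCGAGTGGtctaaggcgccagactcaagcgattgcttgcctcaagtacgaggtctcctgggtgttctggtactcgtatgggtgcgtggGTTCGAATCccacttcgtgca
C33G3.t2: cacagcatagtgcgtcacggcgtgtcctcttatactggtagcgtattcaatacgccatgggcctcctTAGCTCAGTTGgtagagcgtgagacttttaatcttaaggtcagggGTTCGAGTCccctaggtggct
F18C5.t1: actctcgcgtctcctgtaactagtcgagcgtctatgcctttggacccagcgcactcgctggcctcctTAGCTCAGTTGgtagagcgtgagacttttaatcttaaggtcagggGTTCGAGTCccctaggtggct
F34H10.t1: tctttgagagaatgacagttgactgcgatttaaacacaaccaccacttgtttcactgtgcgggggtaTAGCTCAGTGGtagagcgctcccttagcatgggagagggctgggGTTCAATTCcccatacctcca
T08A9.t1: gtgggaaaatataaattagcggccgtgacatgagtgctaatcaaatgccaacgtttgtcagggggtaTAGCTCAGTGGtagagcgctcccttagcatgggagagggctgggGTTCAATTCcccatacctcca
T06H11.t2: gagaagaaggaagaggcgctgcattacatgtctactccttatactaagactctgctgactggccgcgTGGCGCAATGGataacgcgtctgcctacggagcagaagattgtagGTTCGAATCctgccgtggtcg
T01C1.t1: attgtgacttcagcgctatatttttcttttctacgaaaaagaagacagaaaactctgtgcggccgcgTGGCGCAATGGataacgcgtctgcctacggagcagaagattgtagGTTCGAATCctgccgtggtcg
K11H12.t1: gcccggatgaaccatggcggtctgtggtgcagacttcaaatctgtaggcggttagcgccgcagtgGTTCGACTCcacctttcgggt
T13B5.t2: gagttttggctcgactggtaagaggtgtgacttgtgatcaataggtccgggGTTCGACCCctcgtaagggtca

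Peaks at tRNA genes were strong for the list. The authors' signal value, as the peak caller gave it and with no stated normalization, ran from 71.2 through a median of 141 to 507 over the 222 peaks. The other 1027 conservative peaks had a median of 91.2, so the ratio of medians was 1.55. Split by signal into 4 parts of about equal size, the conservative list held 126 peaks at tRNA genes among its 313 strongest peaks (40.3%), then 57 of 312, 29 of 312 and 10 of the 312 weakest (3.21%). The 50 strongest peaks of the whole list included 19 at tRNA genes. The most frequent width, 320 bp, was that of 81.1% of the peaks at tRNA genes and 94.4% of the others. The 42 narrower peaks at tRNA genes, down to 80 bp, were the stronger ones, with a median signal of 285 against 126.

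Summits sat on the front part of the gene. Measured along the gene with 0 as its first base, they ranged from −66 to 134, with quartiles at 11 and 42. The A box begins at base 8 in 90.2% of the 612 genes. Of the 198 peaks at genes with that A box, a B box and no intron, 133 summits (67.2%) lay nearer the centre of the A box than that of the B box, with median distances of 15.5 and 35 bp. The median position was 23 for the 111 stronger peaks and 24 for the 111 weaker ones, and 99 of the stronger summits lay inside the gene against 85 of the weaker. Summits upstream of the gene numbered 23 and those beyond its 3′ end 15. The fragments that make these peaks are longer than a tRNA gene, so a summit places binding only roughly.

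**Figure D1:**
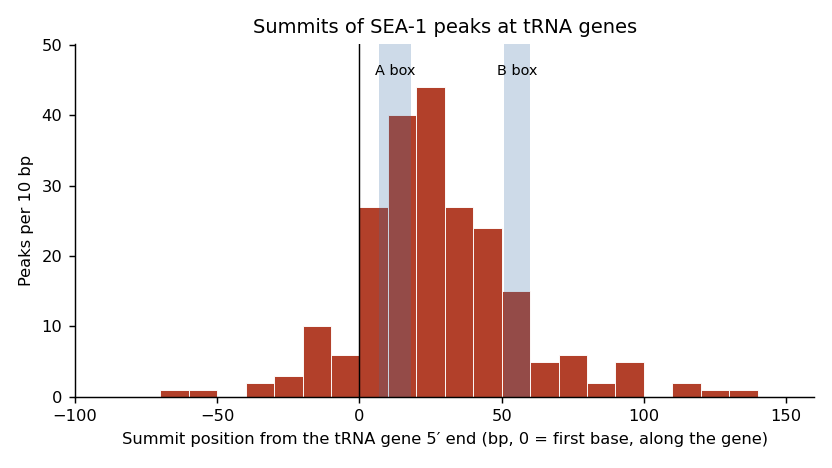
Number of peaks per 10 bp of summit position, measured along the tRNA gene from its first base, with the A box and the median place of the B box shaded. Most of the 222 summits fall between the first base and the B box, and the fullest bar, 20 to 29 bp, holds 44.

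The window that defines the set cut through an empty stretch. The farthest summits inside it lay 66 bp before C12C8.t5, a glycine gene (signal 89.2, with 45.7 in replicate 1 and 36.2 in replicate 2), and at position 134 of Y66D12A.t1, a phenylalanine gene (93.1, with 46.9 and 37.5). The nearest ones outside lay 122 bp from C16C8.t1 (signal 16.6) and 145 bp from Y43D4A.t2 (8.84). Each belonged to a weak peak that overlapped the stronger peak counted at the same gene (96.5 at C16C8.t1 and 123 at Y43D4A.t2). No summit fell between 66 and 122 bp.

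The strongest peaks lay at genes of many isotypes and had like values in the replicates. Values per replicate are those of the strongest overlapping peak in that replicate's ranked list, a long list that also holds weak peaks, and the replicates' lists have no stated common scale. C04A11.t1, the leucine CAA gene printed above, had 507 in the conservative list (chrX:13665447-13665721), 239 in replicate 1 and 265 in replicate 2. C37A2.t1, a cysteine gene in an intron of cye-1, which encodes cyclin E, had 420, with 215 and 189 (chrI:6781706-6781931). F22F1.t6, an initiator methionine gene, whose tRNA starts every protein, had 398, with 211 and 210 (chrX:8156109-8156293). The larger replicate value was less than 1.5 times the smaller at each of these genes. F41D9.t3, an asparagine gene antisense in an intron of sulp-3, had 386, with 214 and 175. The alanine TGC genes T07H6.t2 (367, with 170 and 193) and F15G9.t1 (363, with 189 and 183) carry the same sequence, and the second lies in an intron of him-4, the gene of hemicentin, an extracellular matrix protein. C02B4.t2, a tyrosine gene in an intron of the nuclear receptor gene nhr-17, had 363, with 172 and 195. Of the 10 strongest peaks 8 were on the X chromosome, which held 44.6% of the 222 peaks and 45.1% of the 612 tRNA genes. The remaining 3 of the 10 were ZC455.t1 (serine TGA, 361, with 173 and 188), C33G3.t2 (lysine TTT, 360, with 160 and 203) and C28G1.t1 (glutamate TTC, 357, with 200 and 151), the last of which overlaps an exon of C28G1.2.

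At the other end of the set, the weakest peaks were seen in both ranked lists and in neither own list. K11E4.t5, a lysine CTT gene, had 72.3, with 42.6 in replicate 1 and 38 in replicate 2. F08G5.t1, an arginine ACG gene, had 71.3, with 33.8 and 45. C48C5.t6, a tryptophan gene in an intron of trk-1, had 71.2, with 45.2 and 33.3. All were above the median of the whole ranked lists, 16.6 in replicate 1 and 16.4 in replicate 2.

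The conservative list was itself chosen for peaks that recur between these replicates, so presence and like values in both follow in part from that choice and are given as a description. A ranked peak overlapped 217 of the 222 in both replicates, and the values were higher in replicate 1 at 104 of these and in replicate 2 at 113. The larger value was a median of 1.19 times the smaller, 194 pairs lay within 1.5 times of each other, and 3 were more than 2 times apart. Summits of the replicates lay a median of 20 bp apart. Over all 337 tRNA genes, with or without a conservative peak, that had a ranked summit in both replicates, log10 signal had Pearson's r = 0.834 and Spearman's rho = 0.859; this is across genes that share 2 libraries, and genes are not independent.

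Each replicate also has an own thresholded list, made from that replicate alone. Of the 222 peaks 148 (66.7%) overlapped the own list of replicate 1, where 38.7% of all conservative peaks did, and 146 (65.8%) that of replicate 2, where 39.6% did. Both own lists held 123 (55.4%, interval 48.8 to 61.8), against 27.4% of all conservative peaks. The gap was not seen among strong peaks. Among the 313 strongest peaks, 89.7% of those at tRNA genes and 90.9% of the others were in both own lists, and in the next 312 it was 14% and 14.1%. Few of the weaker peaks were in both: 2 of 29 at tRNA genes (6.9%) and 1 of 283 others (0.353%) in the next group, and 0 of 10 and 12 of 302 (3.97%) in the weakest. The 51 peaks in no own list had a median signal of 89.8, and the 123 in both had 201. Among peaks in a single own list the strongest was at R01H5.t1, a threonine TGT gene (278), which had 128 in replicate 1 while no peak of the ranked list overlapped it in replicate 2. After it came Y92H12A.t1, an arginine TCT gene in an intron of the kinase gene src-1 (168, with 66.2 and 95.7), and W02G9.t2, a threonine AGT gene (165, with 96.3 and 64.2).

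Counted by gene, the own lists placed a summit at 155 tRNA genes in replicate 1 (25.3%, where 1.32% of all nuclear genes had one) and at 152 in replicate 2 (24.8%, against 1.41%). The second thresholded list from both replicates reached 236 tRNA genes (38.6%, against 2.56%).

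**Figure D2:**
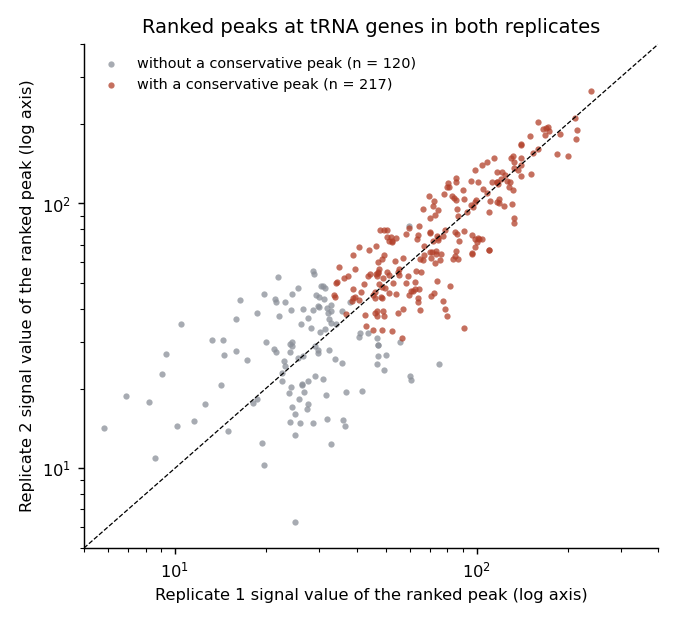
Signal value of the best ranked peak at each tRNA gene in replicate 1 (horizontal) and replicate 2 (vertical), both on log axes, for the 337 genes with one in both; the dashed line marks equal values. The 217 genes with a conservative peak lie mostly at higher values than the 120 without, along the same line, and the sets overlap. The higher values follow in part from how the conservative list was chosen.

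Peaks were found at every standard isotype. The share of genes with a peak was highest for cysteine (8 of 13, 61.5%, interval 35.5 to 82.3), alanine (17 of 34, 50%) and phenylalanine (7 of 14, 50%). It was lowest for histidine (4 of 20, 20%, interval 8.07 to 41.6), serine (10 of 39, 25.6%), glutamine (7 of 27, 25.9%) and proline (11 of 42, 26.2%). All intervals of isotypes with 10 or more genes include the share over all genes, 36.8%. Leucine and serine genes, whose tRNAs have a long variable arm, had peaks at 23 of 78 (29.5%, interval 20.5 to 40.4), and the other isotypes at 202 of 528 (38.3%). The 5 genes without an isotype in RefSeq had none.

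**Figure D3:**
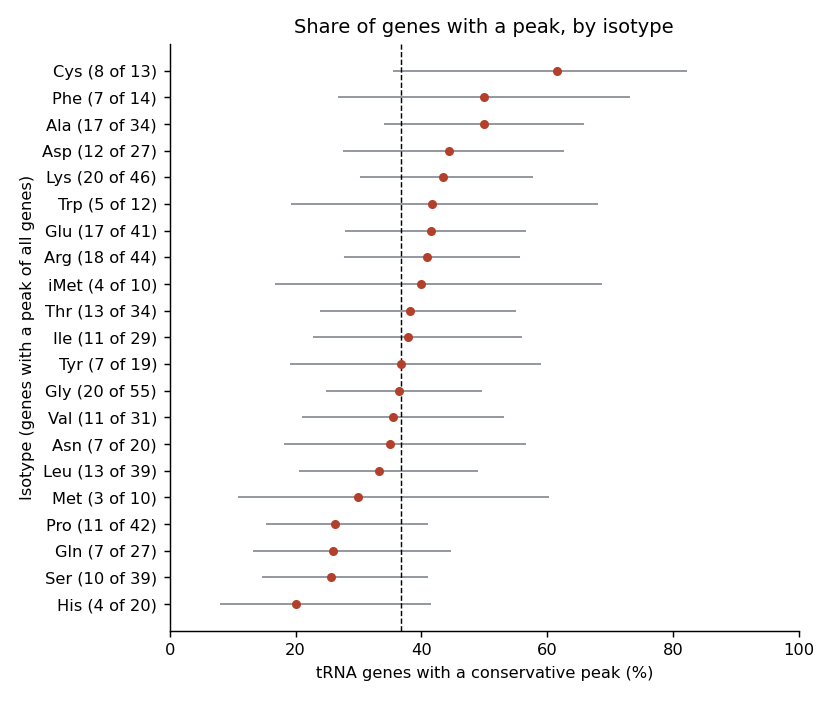
Percent of tRNA genes with a conservative peak for each isotype with at least 10 genes; points are shares, bars 95% Wilson intervals, and the dashed line is the share over all 612 genes. Every interval crosses the line at 36.8%.

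Within an isotype, anticodons differed in their shares, with wide intervals. Glutamate TTC genes had a peak at 10 of 17 (58.8%, interval 36 to 78.4) and glutamate CTC genes at 7 of 24 (29.2%, interval 14.9 to 49.2). Glycine GCC genes had one at 8 of 15 (53.3%) and glycine TCC genes at 12 of 36 (33.3%). Proline CGG genes had one at 3 of 4, and proline TGG genes at 6 of 30 (20%, interval 9.51 to 37.3). Serine AGA genes stood lowest among anticodons with at least 15 genes (2 of 15, 13.3%, interval 3.74 to 37.9). In each of these pairs the intervals overlap.

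The strongest gene of every other isotype not yet named was present in both own lists. Glycine was led by F17H10.t1 (353, with 185 in replicate 1 and 154 in replicate 2) and arginine by F56F3.t1 (351, with 166 and 191). Histidine was led by C06G1.t1 (313, with 160 and 160) and tryptophan by B0523.t1 (308, with 140 and 168), in an intron of fli-1, the flightless homolog. Aspartate was led by F38G1.t2 (280, with 130 and 149), in an intron of egl-17, which encodes a fibroblast growth factor. These leaders came from 2 chromosomes, X and III. Isoleucine was led by T21B4.t1 (279, with 140 and 127), antisense in the collagen gene col-85. Proline was led by C16B8.t2 (265, with 114 and 149), phenylalanine by T28B4.t1 (243, with 128 and 115), valine by R04D3.t2 (243, with 126 and 122) and glutamine by R04A9.t1 (235, with 129 and 120). Isotypes low in share, such as histidine, thus had strong single peaks.

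Initiator and elongator methionine genes carry the same anticodon, CAT, and a gene was called an initiator where a C stands before it. Initiator genes had peaks at 4 of 10: F22F1.t6 (398), T15B12.t1 (264, with 124 in replicate 1 and 128 in replicate 2), F14B6.t2 (111, with 40.8 and 68.3) and F14B6.t1 (87.9, with 46.1 and 43.8). The last 2 lie on chromosome I, 3812 bp apart, and were in neither own list. Without a conservative peak, E01H11.t1 had 54 in replicate 1, in its own list, and no ranked summit in replicate 2; Y57A10C.t1 had 19.8 and 10.3. F15H9.t1, Y22D7AL.t3 and T05C7.t1 had no ranked summit in either replicate, and F38E9.t1 had 20 in replicate 2 only. The other methionine genes had peaks at 3 of 10, or 3 of 9 without F21A3.t1, in which no CAT anticodon was found: C02F12.t1 (195, with 85.2 and 103), C14B9.t1 (195, with 91.1 and 104) and C25F6.t2 (74, with 38.9 and 47.6). In the same row of 3 elongator genes as C25F6.t2, its neighbours C25F6.t1 (24 and 29.4) and C25F6.t3 (10 in replicate 1 only) had no conservative peak. The selenocysteine gene K11H12.t1, which inserts selenocysteine at UGA codons, had no ranked summit in either replicate.

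Identical genes differed in whether they had a peak. The 612 genes have 200 distinct sequences, and 469 genes belong to 57 families of at least 2 identical copies. In 42 families some copies had a peak and some did not, in 10 none did and in 5 all did. All 24 families of 9 or more were mixed, with 18.2 to 66.7% of copies bearing a peak. Within these families the strongest peak was a median of 3 times the weakest (range 1.58 to 4.67). Where reads match several copies equally, how they were assigned to a copy is not stated in what was used here.

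The lysine TTT family shows the spread among copies. Of its 14 copies 6 had a peak: C33G3.t2 (360), T23F1.t1 (181, a peak it shares with a proline gene 67 bp away), K04C2.t3 (169), F43C9.t1 (166), C09B9.t1 (128) and Y70C5A.t1 (111). Their values by replicate ran from 51.2 to 160 in replicate 1, where C09B9.t1 had no ranked summit, and from 66.8 to 203 in replicate 2. Of the 8 copies without a conservative peak, F18C5.t1 and ZK994.t2 had no ranked summit in either replicate and the others reached at most 29.2 in replicate 1 and 26.8 in replicate 2. No value of the second set reached the first. The conservative list was made from these same replicates, so lower values at copies outside it follow in part from that choice. In the proline TGG family 5 of 24 copies had a peak, with signal values of 147 to 232. In glycine TCC it was 10 of 29 copies (89.2 to 344), and in lysine CTT 13 of 25 (72.3 to 325).

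Genes with identical copies had a peak more often than genes of unique sequence. The shares were 192 of 469 (40.9%, interval 36.6 to 45.4) and 33 of 143 (23.1%, interval 16.9 to 30.6), a difference of −17.9 percentage points for single-copy minus multi-copy genes (95% Newcombe interval −25.5 to −9.14). Some small groups of genes, which share members, rarely had a peak. Of 22 genes in which every stretch of 32 bases occurs once in the genome, 0 had a conservative peak (Wilson upper limit 14.9%). The share did not fall evenly: it was 11 of 55 (20%) where over 0 to 50% of the stretches were unique. Where over 50 to under 100% were unique it was 21 of 61 (34.4%). No A box was found in 20 genes, of which 1 had a peak, T14G8.t1, a proline gene with 90.9. An anticodon that decodes the annotated isotype was lacking in 18 genes, of which 1 had a peak. A run of at least 4 T within 50 bp after the gene was lacking in 7 genes, none of which had a peak.

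The B box was about as frequent in both sets of genes. Its core GTTCGANNC was present within the gene in 73.8% of genes with a peak and 71.1% of those without, a difference of 2.72 points (95% interval −4.75 to 9.82). The wider GNTCNANNC, which includes the core, was found in 99.1% and 98.2%. The T run after the gene had a median length of 5 in both sets. Genes with a tRNA intron had a peak at 12 of 29 (41.4%, interval 25.5 to 59.3), against 36.5% of those without. GC content of the gene itself was 58.3% at the median in both sets.

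The flank just before the gene did differ. Over the 100 bp upstream of the gene, the median GC content was 46% at genes with a peak and 38% at those without. Genes whose flank had 16 to 35% GC carried a peak at 11 of 155 (7.1%, interval 4.01 to 12.3), those with 36 to 42% at 48 of 175 (27.4%), those with 43 to 47% at 72 of 140 (51.4%) and those with 48 to 68% at 94 of 142 (66.2%, interval 58.1 to 73.5). The highest and lowest groups differed by 59.1 percentage points (95% Newcombe interval 49.5 to 67). Each replicate's own list showed the same order, from 3.23% to 54.2% of genes in replicate 1 and from 1.94% to 51.4% in replicate 2. The median signal of the peaks present was 96.5, 124, 135 and 168 along the groups. Even a ranked summit, the lowest bar used here, was found at 36.1% of the genes in the first group and 85.2% in the last in replicate 1, and at 37.4% and 89.4% in replicate 2. Whether base composition also changed how reads were recovered was not tested.

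This difference was seen over the whole of these 100 bp. The medians were 50% and 45% in the last 20 bp before the gene, 43.3% and 36.7% from 20 to 50 bp, and 46% and 36% from 50 to 100 bp. In the stretch 100 to 200 bp upstream the medians were 35% and 36%, and the genes of highest GC there had a peak less often (26.4%) than those of lowest GC (38.2%). In the 100 bp after the gene the medians were 32% and 29%, with peaks at 28.6% of the lowest and 45% of the highest group. By base, flanks of genes with a peak held 27% C, 19.3% G, 24.2% A and 29.6% T over the 100 bp upstream, and flanks without held 21.1% C, 17.5% G, 29.5% A and 31.9% T. On the gene strand C differed more than G.

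Copies of one sequence showed the same. In 37 of the 42 mixed families the median flank GC was higher at copies with a peak than at copies without, and in 23 of the 24 families of 9 or more copies, where the median difference was 9.5 points and the range 0 to 15. The exception was proline TGG, at 42% in both sets. Asparagine GTT had 49% against 34%, initiator methionine 47% against 32% and histidine 52% against 37.5%. Single genes did not follow without exception. F18C5.t1, the lysine copy printed above with no peak, has a flank of 53% GC, and its partner C33G3.t2, with a peak of 360, has 49%. In the arginine pair T06H11.t2 has 39% and T01C1.t1 36%.

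**Figure D4:**
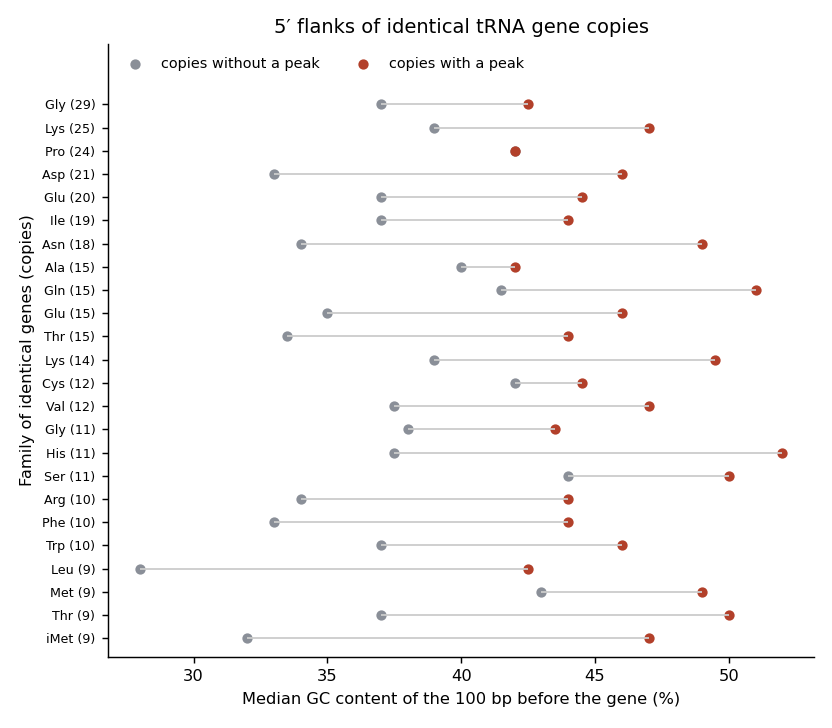
Median GC content of the 100 bp before the gene for copies with and without a conservative peak, in the 24 families of at least 9 identical tRNA genes; each line is a family, named by isotype with its number of copies. Copies with a peak lie to the right in 23 families and at the same value in 1.

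Among all 2078 words of 6 bases found in these flanks, with both strands counted as 1, the word whose share was most raised at genes with a peak was GAGAGA. On the other strand it reads TCTCTC. It was chosen after the values were seen and is given without a test. It occurred in 70 of 225 flanks of genes with a peak (31.1%) and 39 of 387 without (10.1%), and in 8.77% of the 100 bp flanks of 19973 coding genes. Split by flank GC, peaks were at 29 of 33 genes with the word and 65 of 109 without it (59.6%) at 48 to 68% GC. At 36 to 47%, a range that joins groups of unlike share, it was 40 of 67 (59.7%) and 80 of 248 (32.3%). At 16 to 35% it was 1 of 9 and 10 of 146. The word was picked by its share in these same genes, so this split is no separate support. The T-box core GGTGTGA, searched on both strands, occurred in 3 flanks with a peak (1.33%), 3 without (0.775%) and 0.636% of coding flanks. That search covered the 100 bp before the gene and not the gene itself, where 82.9% of the summits lay. Overlaps between matches of these words were not set apart. In the 60 bases printed above, GAGAGA occurs in the flank of F34H10.t1 and in none of the other 5 flanks shown. The word most depleted, AAAATT, was in 8.44% and 28.9% of the flanks and in 44.2% of coding flanks.

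Genes with a close tRNA neighbour had a peak less often. With another tRNA gene within 1000 bp, 62 of 236 genes had a peak (26.3%, interval 21.1 to 32.2), and without one 163 of 376 (43.4%, interval 38.4 to 48.4), a difference of −17.1 points (95% Newcombe interval −24.3 to −9.35). With summits counted up to 250 bp from the gene the difference was −9.88 points. Along 6 classes of distance the share went from 21.1% of the 109 genes with a neighbour within 200 bp to 48.3% of the 211 whose nearest lay over 20000 bp away. On X the shares were 25.2% and 46.1%, on the autosomes 27.7% and 41.7%. Flanks went with this too: the median 5′ flank GC was 39.5% for clustered and 44% for lone genes. At like flank GC the gap was small in the first 3 groups: 5.48% of clustered and 8.54% of lone genes at 16 to 35% GC, 25.6% and 29.4% at 36 to 42%, and 50% and 52.1% at 43 to 47%. At 48 to 68% it was 44.8% of 29 clustered and 71.7% of 113 lone genes.

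**Figure D5:**
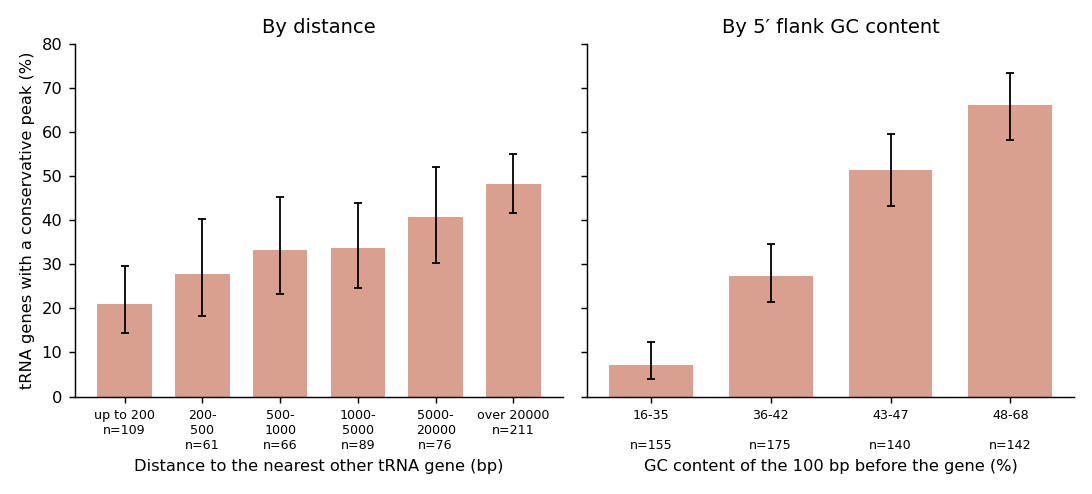
Percent of tRNA genes with a conservative peak by distance to the nearest other tRNA gene (left) and by GC content of the 100 bp before the gene (right); bars are shares, error bars 95% Wilson intervals, and n is the number of genes. Shares run from 21.1 to 48.3% on the left and from 7.1 to 66.2% on the right.

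Orientation of neighbours differed as well. Of 136 pairs of adjacent genes within 1000 bp, 14 had a peak at both genes, 47 at 1 of them and 75 at neither. In the 51 divergent pairs, whose 5′ ends face each other, 14.7% of the genes had a peak. In the 28 convergent pairs it was 39.3% and in the 57 pairs on the same strand 33.3%. Divergent pairs also stood closest, with a median gap of 161 bp, against 226 and 453 bp. Orientations were not compared at like gap, flank GC or flank repeats. A gene can enter more than 1 pair, so these shares are not independent. The strand itself made no clear difference: 113 of 298 genes on the plus strand (37.9%) and 112 of 314 on the minus strand (35.7%) had a peak.

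Most clusters of tRNA genes were pairs. The genome has 100 clusters of at least 2 tRNA genes with gaps of at most 1000 bp. Of these 78 were pairs, which can hold no more than 2 genes with a peak. Among the larger ones, 14 of 3 genes, 4 of 4 and 4 of 5 or more, none had more than 2 such genes. Some gene had a peak in 39.7% of the pairs, 57.1% of the clusters of 3 and all clusters of 4 or more. By gene the shares were 23.7%, 31%, 43.8% and 22.7%, from pairs to clusters of 5 or more. In the cluster of 6 genes on X that holds the initiator gene F22F1.t6 (398), the isoleucine gene F22F1.t7 also had a peak (91.9, with 57.2 in replicate 1 and 62.3 in replicate 2). The serine and aspartate genes F22F1.t2 to F22F1.t5 beside them reached at most 30.3 and 32.8. Their flanks had 25 to 36% GC, and that of F22F1.t6 50%. In a cluster of 3 proline genes, C16B8.t2 had 265 and C16B8.t1 147, and C16B8.t3, 98 bp from C16B8.t2, had 7.09 in replicate 1 and no ranked summit in replicate 2. Only 3 of the 222 peaks lay within 100 bp of more than 1 tRNA gene, as at T23F1.t1 and T23F1.t2, which share the value 181.

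The X chromosome and the autosomes had peaks at like shares of their tRNA genes, as did introns and intergenic sites. Peaks were found at 99 of 276 tRNA genes on X (35.9%) and 126 of 336 on the autosomes (37.5%), a difference of −1.63 points (95% interval −9.21 to 6.04). In the conservative list chromosome V had the lowest share with 20 of 78 (25.6%, interval 17.3 to 36.3, against 36.8% over all). The other autosomes ran from 38.6 to 43.8%. V also stood low in both own lists, but there another autosome had a like share. Replicate 1 had a summit at 15 of 78 genes on V and 11 of 66 on I. Replicate 2 had one at 15 of 78 on V and 11 of 57 on II. Among genes with a peak the median signal was 167 on X and 131 on the autosomes. At like flank GC the shares on X were higher in 3 of 4 groups: 33% and 21.4% at 36 to 42%, 63% and 44.2% at 43 to 47%, 74.4% and 62.6% at 48 to 68%, against 3.41% and 11.9% at 16 to 35%. Intronic genes, wholly inside a protein-coding gene and clear of its exons, had a peak at 103 of 283 (36.4%), and intergenic ones at 118 of 319 (37%), a difference of −0.595 points. Among single-copy genes that difference was −14.6 points. On the strand of the host gene it was 59 of 160 (36.9%), and against it 44 of 122 (36.1%). A coding promoter window, from 1000 bp upstream to 200 bp downstream of a transcript start, held 51 of the 222 summits (23%) and 46.5% of the other conservative summits.

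Genes with a repeated 5′ flank had few peaks. The 5′ flank held a stretch of 32 bases with a second place in the genome in 54 genes, of which 3 had a peak (5.56%), against 222 of 558 with a wholly unique 5′ flank (39.8%). Inside the gene, by contrast, 474 genes had no unique stretch of 32 bases at all, and 193 of these had a peak (40.7%). Among genes with unique flanks on both sides, clustered genes had a peak at 27.7% and lone ones at 46.8%. With a repeated flank the order was the other way, 8 of 41 clustered genes (19.5%, interval 10.2 to 34) and 3 of 34 lone ones (8.82%, interval 3.05 to 23), with intervals that overlap. For lone genes with unique flanks, the shares along the 4 groups of flank GC were 9.72%, 32.5%, 54.5% and 76.2%.

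Many tRNA genes without a conservative peak had weaker signal. Of the 387, 120 had a ranked summit within 100 bp in both replicates (31%), 55 in replicate 1 only, 72 in replicate 2 only, and 140 in neither (36.2%). Their ranked summits had median signals of 25 in replicate 1 and 24.9 in replicate 2, against 73 and 72.2 at genes with a peak. This gap follows in part from how the conservative list was chosen. An own list placed a summit at 10 of the 387, and 200 were matched in the ranked list that compares the replicates, at a −log10 irreproducible discovery rate of at most 1.94. The strongest by summed value was F56F4.t2, a lysine CTT gene in an intron of pept-3, a peptide transporter gene, with 59.5 in replicate 1 and 82.4 in replicate 2, in both own lists. F32A6.t1, a phenylalanine gene, had 103 in replicate 2 and no ranked summit in replicate 1. Y40C5A.t1, a tryptophan gene, had 74.8 and 24.8. Each of these 3 exceeded, in at least 1 replicate, the median value of the genes with a peak. Of the 140 genes with no ranked summit, 61 had a tRNA neighbour within 1000 bp (43.6%, against 38.6% of all 612 genes) and 34 a repeated flank on either side (24.3%, against 12.3%).

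Summits at snoRNA genes lay mostly before the gene, and those at snRNA genes mostly inside it, as at tRNA genes. At the 61 conservative peaks that lay as close to snoRNA genes, which make guides for chemical changes of other RNAs, the median signal was 187 and 82% were in both own lists (interval 70.5 to 89.6). Their summits lay a median of 43 bp before the gene (−43), and 14.8% lay inside it, against 82.9% at tRNA genes. At the 22 peaks near genes of spliceosomal and other snRNAs the median signal was 114, the median summit position 51.5, and 68.2% of summits lay inside the gene. Peaks followed where the tRNA genes lie: 44.6% of the peaks and 45.1% of the genes were on X. At snoRNA genes it was 1 of 61 peaks (1.64%) and 9.54% of 346 genes, and at snRNA genes 0 of 22 peaks and 2.33% of 129 genes. No test of these differences was made.

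Genes of the machinery that makes tRNA had peaks of their own at about the share of all coding genes. From a list of 24 genes of RNA polymerase III, its factors and tRNA maturation, 23 were matched in the annotation and 1 (4.35%) had a promoter window with a conservative summit, against 657 of 19973 coding genes (3.29%). It was rpac-19, a subunit shared by RNA polymerases I and III, with a signal of 102. The polymerase III subunit genes rpc-1 and rpc-2, the TFIIIB genes brf-1 and tbp-1, the TFIIIC genes tftc-1, tftc-3 and tftc-5, and the repressor gene mafr-1 had none.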

How the data were processed

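Peak lists from 2 replicates of 1 group were used on assembly ce11, per the labels. Per the deposited text files, a list of the whole series was made from 2 libraries' alignments and an own list from 1, and some name further inputs with no stated role. For aligner, peak caller, versions and depth: not given in the sources used here. A deposited signal value (column 7) has no stated normalization and was compared within lists. The deposited score and the deposited −log10 q-value were read to describe the lists only, and in the deposited ranked series list the irreproducible discovery rate stands as its −log10. Of the ranked series lists 1 was not used.

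Genes, biotypes and exons came from Ensembl release 115 and isotypes from RefSeq (607 of 612 nuclear tRNA genes), both on WBcel235, which is ce11. Anticodons were read from a scan for the anticodon arm, with 5 stem pairs of which at least 4 must form, and kept for 594 genes where they decode the RefSeq isotype. Lone genes have no tRNA gene within 1000 bp. Uniqueness was checked for exact 32-base stretches on both strands. Peaks were matched to own and ranked lists by an overlap of at least 1 bp, and genes to summits within 100 bp. Positions are 1-based. Wilson and Newcombe 95% intervals came from statsmodels 0.14.6, under Python 3.11.15. The matching, repeat count and scan were checked on simulated data with known answers.

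Named were the genes at the 10 strongest and 3 weakest peaks, the strongest gene of each isotype, the 2 peaks nearest inside and outside 100 bp, the 3 strongest peaks in 1 own list, the 3 strongest genes without a peak, copies of identical families, methionine and selenocysteine genes and hosts. Cluster examples, words and the flank GC comparison were chosen after their values were seen. Members and lists were chosen with earlier results of these data known. Alternatives changed the list, the window, the genes counted and the cluster distance.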

Additional observations from a re-analysis of the deposited data

How the results depend on the processing

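With a single group there is no second condition, the replicates enter as their own lists, and depth is unknown. No paired analysis was possible because the samples form 1 group. The count of peaks, the differences by chromosome, cluster and B box, and the single-copy difference stayed within 1.5 times or within their intervals under every alternative run for them, the cluster difference (−17.1 points) reaching −9.88 with a window of 250 bp. The share of tRNA genes with a peak (36.8%) was 24.8 to 25.3% in the own lists, each made from 1 replicate. These lists also reached fewer nuclear genes of any kind, 1.32% and 1.41% against 2.56%. The share was 30.2% in the stronger part of the list, 30.1% with the summit inside the gene and 23.1% for single-copy genes. The ratio of median signals (1.55) was 1.29 to 1.4 in the own lists and 1.34 in the stronger part. The median summit position (23) was 23.5 in the second list, 22 in the stronger part and 24 inside the gene. The intronic minus intergenic difference (−0.595 points) was −14.6 for single-copy genes. The difference between high and low flank GC (59.1 points) was 49.5 to 51 in the own lists and 42.3 for single-copy genes. The causes were not tested. Unique flanks on both sides, and all alternatives for flank GC, were chosen after seeing the data.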
